A study of Rattus norvegicus with 32 samples.

Results

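The blood-brain barrier is formed by the endothelium of brain capillaries together with the mural cells that sit on it, and 41 genes of these cells were followed in the hippocampus of rat pups with and without perinatal iron deficiency and intranasal insulin. The 41 genes comprise 31 of endothelium (junctions, transporters, receptors, transcription factors, and surface or secreted proteins) and 10 of mural cells (7 of pericytes and 3 of smooth muscle). They were found by their symbol among the 32883 genes of the deposited count table. A row was found for 40 of the 41, and 39 of these (29 endothelial and 10 mural) had enough counts to be among the 15439 genes tested. Pecam1 was not analysed here. Robo4, a receptor of endothelial cells, was below the count filter, with at most 0.143 CPM (counts scaled to a common library size) in IS control, 0.0846 CPM in ID control and 0.168 CPM in IS insulin, and 1.43 CPM in ID insulin replicate 2.

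RNA was sequenced from 1 hippocampus of each of 32 wild-type pups in 4 groups. In the iron-deficient (ID) groups the pregnant dams were kept on a purified diet with 3 to 6 ppm iron between gestational day 3 and postnatal day 7, and the other groups were iron sufficient (IS). Pups of the insulin groups were given insulin through the nose in 2 doses per day between postnatal days 8 and 21, and pups of the control groups were not. There were 8 IS control, 9 ID control, 7 IS insulin and 8 ID insulin libraries. The iron content of the sufficient diet, what control pups were given in place of insulin, and the strain and litter of each pup are not given in the sources used here, and p-values here cover only how far these pups differ from each other, which may be in part technical. Collection was on postnatal day 7 or 21, and the labels do not say which applied to a control pup, so that a difference of age between control and insulin groups cannot be told apart from insulin by the labels. Myelin and oligodendrocyte genes rise with age in this period. Of 10 such genes, 0 were called between IS insulin and IS control, with 8 of 10 fitted values above 0 (median log2 fold change 0.06). Between ID insulin and ID control 1 was called, Mal (-0.48, adjusted p = 0.0116), and the other 9 were above 0 (median 0.13).

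Brain endothelial cells are joined by tight and adherens junctions, carry dedicated transporters for glucose, amino acids and hormones, and pump many foreign compounds back into the blood. Pericytes share the basement membrane of capillaries and help to set up and keep the barrier, while smooth muscle cells wrap arteries and arterioles and contract to set their width. VEGF, angiopoietin, TGF-beta and Notch signals pass between these cells while vessels of the brain grow and mature after birth. In bulk RNA of a whole hippocampus, fewer vessel cells and less RNA of a gene per cell cannot be told apart.

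A promoter was found in the RefSeq tables (rat assembly GRCr8) for 27 of the 41 genes, 29 promoters in all, and each was read over the 250 bases before the transcription start. Those of the 5 genes called in ID control against IS control or in the interaction of diet and insulin are printed because the results turn on these genes, 5′ to 3′ on the gene's own strand, with each GGAA or its reverse complement TTCC in capitals. GGAA is the core of the sites bound by ETS factors such as Erg and Fli1, and it was chosen after the other motifs had been searched. The Ocln stretch lies at chr2:33441199-33441448, minus strand, that of Eng at chr3:36332029-36332278, plus strand, that of Slco1a4 at chr4:176495847-176496096, minus strand, that of Itm2a at chrX:76565145-76565394, minus strand and that of Vtn at chr10:63892532-63892781, plus strand.
Ocln: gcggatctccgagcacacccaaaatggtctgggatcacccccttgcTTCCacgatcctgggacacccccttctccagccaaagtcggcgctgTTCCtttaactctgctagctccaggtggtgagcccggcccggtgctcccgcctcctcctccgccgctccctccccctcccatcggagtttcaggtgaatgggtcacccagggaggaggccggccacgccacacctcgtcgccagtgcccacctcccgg
Eng: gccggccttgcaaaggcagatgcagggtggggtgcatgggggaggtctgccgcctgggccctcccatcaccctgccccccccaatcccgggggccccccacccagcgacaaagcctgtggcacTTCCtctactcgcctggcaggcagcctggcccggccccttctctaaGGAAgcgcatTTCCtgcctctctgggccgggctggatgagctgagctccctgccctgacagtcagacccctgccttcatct
Slco1a4: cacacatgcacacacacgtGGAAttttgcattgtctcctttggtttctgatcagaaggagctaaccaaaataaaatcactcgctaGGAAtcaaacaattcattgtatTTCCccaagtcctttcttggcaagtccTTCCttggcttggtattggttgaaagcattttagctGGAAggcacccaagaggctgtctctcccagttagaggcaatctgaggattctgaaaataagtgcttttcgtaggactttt
Itm2a: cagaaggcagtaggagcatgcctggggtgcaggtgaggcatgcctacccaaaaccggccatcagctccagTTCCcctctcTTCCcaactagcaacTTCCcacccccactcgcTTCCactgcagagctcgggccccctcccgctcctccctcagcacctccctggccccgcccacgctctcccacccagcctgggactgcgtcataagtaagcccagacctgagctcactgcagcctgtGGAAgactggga
Vtn: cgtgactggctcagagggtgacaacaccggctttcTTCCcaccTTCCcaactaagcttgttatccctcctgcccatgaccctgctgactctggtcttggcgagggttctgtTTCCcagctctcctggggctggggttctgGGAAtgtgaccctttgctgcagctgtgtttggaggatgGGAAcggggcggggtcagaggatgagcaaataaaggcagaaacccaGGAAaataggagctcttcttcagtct

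The number of GGAA cores on either strand was 2 in Ocln, 3 in Eng, 5 in Slco1a4, 5 in Itm2a and 6 in Vtn. Across the set, 25 of 29 promoters (86.2%) held this core, against 93.2% of all 33469 promoters of the same length. The longer form CAGGAAG, which contains the core, was in 5 of 29 (17.2%; Abcg2, Egfl7, Emcn, Erg and Robo4) against 10.2% of all promoters, and ACCGGAAG, which also contains it, in 0 of 29 against 2.02%. The CArG box, the site of serum response factor in smooth muscle genes, was searched only in its strict form (CC, 6 of A or T, GG). This form was in 0 of 29 against 1.5%, and forms with another base in the core were not searched. Acta2 was among the genes with a promoter, and Tagln and Myh11 were not. The GC content of the 5 printed stretches ran from 42.4% in Slco1a4 to 68% in Eng, around a median of 51.2% over all promoters. These matches describe letters in a window and say nothing about binding.

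Total counts ran from 19619345 to 28062630 per library, and every tested gene of the set was detected in every library, with between 51 counts (the lowest of Sox17) and 5600 counts (the highest of Tjp1). Some libraries stood apart across the set. IS control replicate 5 had the lowest level of its group in 24 of 29 endothelial and 5 of 10 mural genes, and ID insulin replicate 3 had the lowest in 22 of 29 and 7 of 10. ID insulin replicate 3 also differed most from others of its group over all genes (up to 108 chi-square per gene), with the highest summed choroid plexus and myelin markers and the lowest summed neuronal markers of its group. In IS insulin, replicate 1 was lowest in 16 of 29 endothelial and 7 of 10 mural genes. The first number in the sample titles coincided with the group, so title number and group cannot be told apart, except that ID control held numbers 69 (5 libraries) and 70 (4 libraries). Between these sets 33 of 15008 genes differed, 0 of them among the 39, and the lowest adjusted p of a gene of the set was 0.0568.

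Between the control groups, most endothelial genes had a higher fitted level in iron deficiency, and 2 of them passed the test. Comparing ID control with IS control, 2 of 29 endothelial genes rose, the tight junction gene Ocln and the TGF-beta co-receptor gene Eng, and 0 fell. This is 6.9% of the endothelial genes, where 0.291% of all genes tested differed between these groups and 0.175% were higher and 0.117% lower. A gene is here termed called at a Benjamini-Hochberg adjusted p under 0.05 over all genes in edgeR's quasi-likelihood test. The main fit held all 32 libraries in 4 groups, and calls of other fits or tools are named as such. Of the 29, 27 had a fitted log2 fold change above 0, with a median of 0.23, beside 52.1% of all genes and a median of 0.01. An unadjusted p under 0.05 was reached by 15 of the 29. The share of all genes at that unadjusted threshold is not given here. Counts at an unadjusted p, here and below, are therefore not to be set against the shares of called genes. Without IS control replicate 5, the library low in most endothelial genes, the median was 0.17 and Ocln and Eng were still called.

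With insulin in iron-deficient pups, most endothelial genes had a lower fitted level than in ID control pups, and 4 passed the test. Comparing ID insulin with ID control, 4 of 29 endothelial genes fell: Cdh5 of the adherens junction, the amino acid transporter gene Slc7a5, and the surface protein genes Itm2a and Podxl. That is 13.8% of the endothelial genes, where 3.82% of all genes differed, 1.96% higher and 1.86% lower. Fitted values were below 0 for 27 of 29, with a median of -0.21, beside 48.8% of all genes and a median of 0.00, and 14 of 29 had an unadjusted p under 0.05. Without ID insulin replicate 3 the median was -0.17, and Slc7a5 and Itm2a were still called, but Cdh5 and Podxl were not. The ID control libraries enter both this comparison and the preceding one, so the 2 sets of values are not independent of each other.

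Insulin in iron-sufficient pups gave no call among the 29 endothelial genes, where 0.123% of all genes were called in the same comparison (0.0712% higher and 0.0518% lower). Fitted values were split, 15 above and 14 below 0 (median 0.00), and 2 of 29 had an unadjusted p under 0.05. DESeq2 and limma voom also called 0 of the 39 genes of the set in this comparison. Between the insulin groups, ID against IS, 0 of 29 were called where 2.45% of all genes differed (1.32% higher and 1.13% lower), with a median of 0.02 and 5 of 29 at an unadjusted p under 0.05. DESeq2 called 3 of the 39 genes of the set there, Itm2a, Slco1a4 and the pericyte gene Vtn, where it called 4.68% of all genes. limma voom called 0 of the set, beside 3.67% of all genes.

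The insulin response itself differed between diets in 2 of 29 endothelial genes, Slco1a4 and Itm2a, where the interaction term was called in 0.939% of all genes (0.512% above and 0.427% below 0). Both terms were negative, that is, the difference of ID insulin from ID control lay below that of IS insulin from IS control. The interaction term was below 0 in 26 of 29 endothelial genes (median -0.22), beside 52.8% of all genes (median -0.01), and 9 of 29 had an unadjusted p under 0.05.

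**Figure D1:**
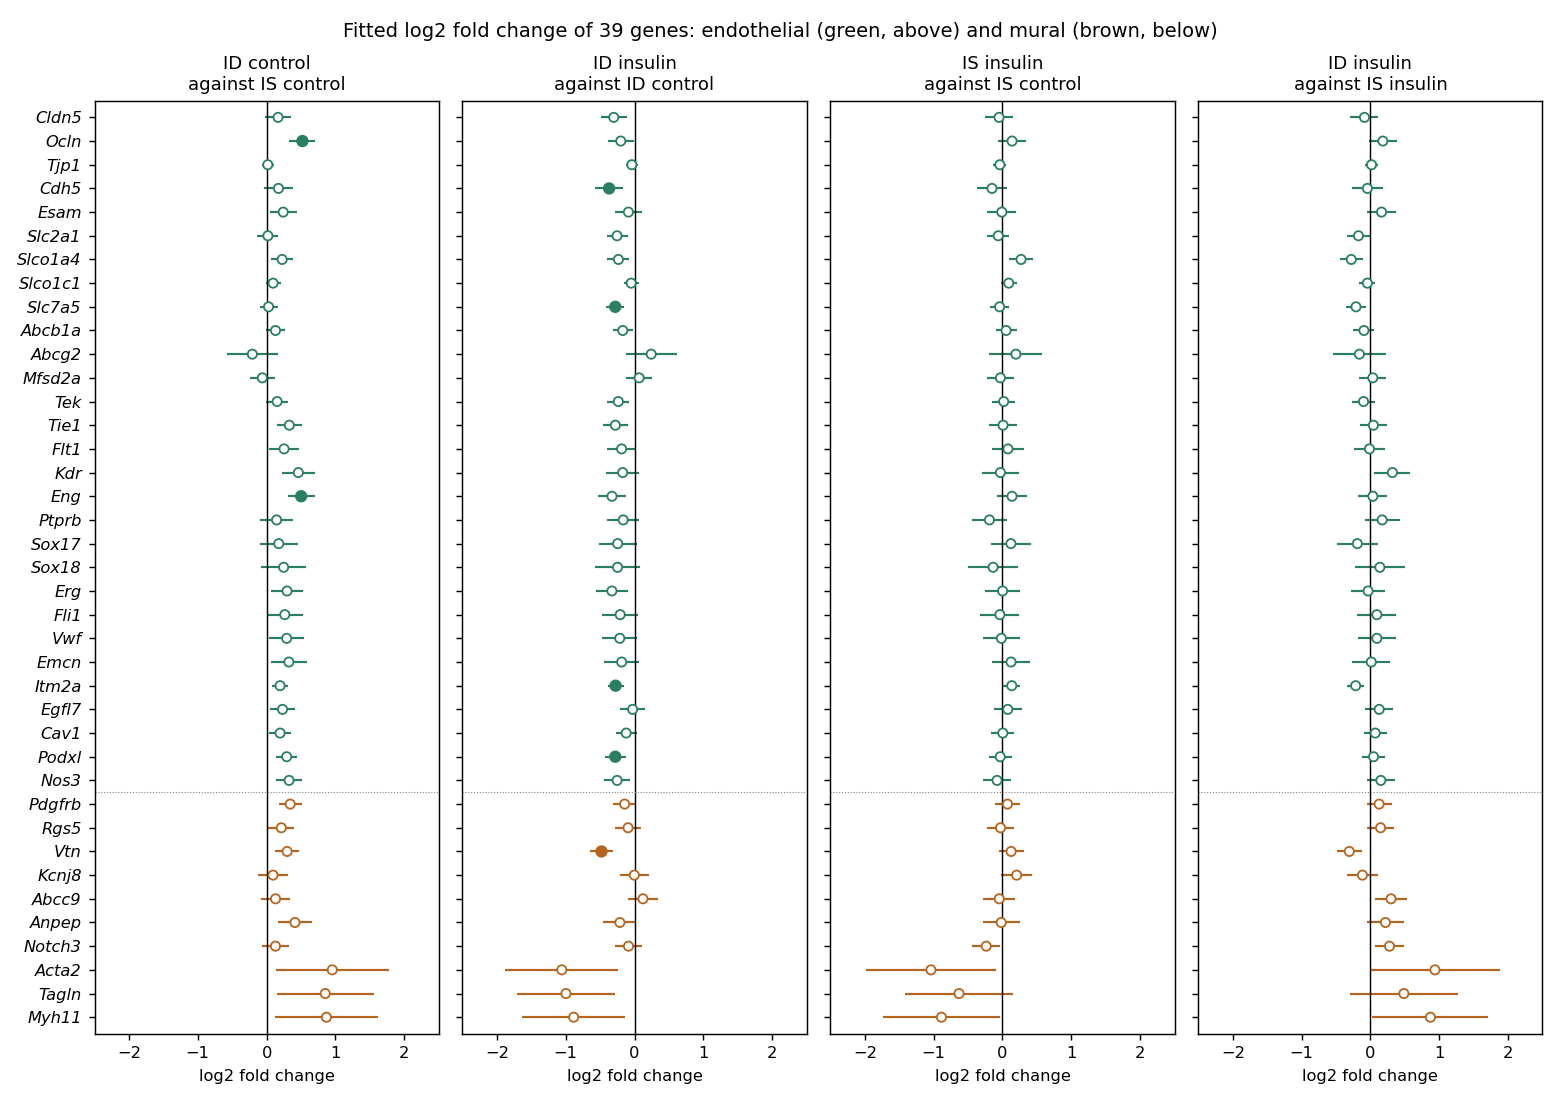
Fitted log2 fold change (horizontal axis) of each of the 39 tested genes in 4 comparisons, with 95% intervals; filled points passed an adjusted p of 0.05, endothelial genes are green and mural genes brown. Most points of ID control against IS control lie to the right of 0 and most of ID insulin against ID control to the left, and the 3 smooth muscle genes at the bottom have the widest intervals.

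Among the junction genes, Ocln encodes occludin, a membrane protein of tight junctions that epithelia such as the choroid plexus also make. Its lowest, median and highest levels were 14.1, 16.4 and 21.6 CPM in IS control and 20.7, 23.5 and 28.3 CPM in ID control. In the insulin groups these were 14.2, 18.6 and 22.9 CPM (IS) and 17.8, 19.8 and 24.4 CPM (ID). Of the ID control libraries, 8 of 9 lay above every IS control library, and the insulin groups overlapped each other and both control groups. Ocln was 1.43-fold higher in ID control than in IS control (log2 fold change 0.52, 95% interval 0.33 to 0.71, adjusted p = 0.0061). ID insulin did not pass the test against ID control (-0.20, adjusted p = 0.237) or against IS insulin (0.18, adjusted p = 0.321). With the mean levels of choroid plexus and meninges markers as covariates, the difference between the control groups was 0.34 and no longer passed (adjusted p = 0.0822), and with ID control limited to title number 70 it was 0.45 (adjusted p = 0.105).

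Cdh5 encodes VE-cadherin, the adhesion molecule of endothelial adherens junctions. ID control spanned a narrow range, with lowest, median and highest levels of 30.8, 33.4 and 35.4 CPM, and ID insulin a wider one of 18.1, 26.9 and 31.3 CPM. The corresponding levels were 23.5, 28.6 and 38.3 CPM in IS control and 18.2, 28 and 30.8 CPM in IS insulin. In ID insulin, 7 of 8 libraries lay below every ID control library and 1 overlapped them. Cdh5 was 1.29-fold lower in ID insulin than in ID control (log2 fold change -0.37, SE 0.11, adjusted p = 0.0443). The call was lost in 12 of 17 fits that each left out 1 library, when any of ID control replicates 2 to 9 or ID insulin replicates 2, 3, 4 or 7 was absent, with an adjusted p of at most 0.0955. It was also lost with no count filter (adjusted p = 0.0544), with the 2 groups compared alone (0.0566), with choroid plexus and meninges covariates (0.253) and with ID control limited to title number 69 (0.175) or 70 (0.191).

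Cldn5, the claudin that seals brain endothelial tight junctions, was not called in any comparison of edgeR's main fit. Its lowest, median and highest levels were 52.5, 76.4 and 88.6 CPM in IS control, 73, 82.6 and 100.1 CPM in ID control, 55.3, 71.2 and 84.6 CPM in IS insulin and 51.4, 71.2 and 89.5 CPM in ID insulin. All 4 ranges overlapped, and ID control had the highest mean (84.4 ± 8.75 CPM, SD, n = 9) and ID insulin the lowest (68.4 ± 12.4 CPM, SD, n = 8). The difference of ID insulin from ID control was -0.30 (adjusted p = 0.074), with a 95% interval of -0.49 to -0.11, and that of ID control from IS control was 0.17 (adjusted p = 0.513). The other junction members, the scaffold gene Tjp1 (ZO-1) and the adhesion molecule gene Esam, were not called in any comparison, with log2 fold changes of 0.02 and 0.24 in ID control against IS control and -0.04 and -0.09 in ID insulin against ID control. DESeq2 and limma voom called Cldn5 lower in ID insulin than in ID control, as did edgeR without ID insulin replicate 8.

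Of the 7 transporters, none was called between the control groups (median 0.03), and 1, Slc7a5, fell between ID insulin and ID control (median -0.17). Slc7a5 encodes LAT1, which carries large neutral amino acids and L-DOPA across the barrier and is also found in other brain cells. The lowest, median and highest levels were 80.1, 96.3 and 114 CPM in ID control and 63.6, 81.2 and 87.7 CPM in ID insulin. IS control (82.2, 97.2 and 101 CPM) and IS insulin (75.4, 93.1 and 104 CPM) were close to ID control, and the ID insulin libraries reached into all 3 other ranges. Slc7a5 was 1.21-fold lower in ID insulin than in ID control (log2 fold change -0.28, SE 0.07, adjusted p = 0.0172). Within ID control it averaged 105 ± 7.86 CPM in the 4 libraries of number 70 and 89.4 ± 7.30 CPM in the 5 of number 69 (SD). Against number 69 alone the difference was -0.17 (adjusted p = 0.245), and against number 70 alone -0.41 (adjusted p = 0.00575). The call was also lost with the 2 groups compared alone (adjusted p = 0.0521) and with choroid plexus and meninges covariates (0.0515).

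Slco1a4, an organic anion transporter of the barrier that also takes up thyroid hormone and steroid conjugates, had fitted insulin differences of opposite sign under the 2 diets. IS insulin reached 44.4, 56.6 and 66.2 CPM (lowest, median, highest) over 32.3, 47 and 53.8 CPM in IS control. ID insulin had 40.3, 46 and 52.2 CPM, under 48.2, 52.5 and 58.3 CPM in ID control. Each pair of groups overlapped. Neither response passed on its own, at 0.27 (adjusted p = 0.13) in IS pups and -0.23 (adjusted p = 0.101) in ID pups. Their difference was called (interaction -0.50, SE 0.12, 95% interval -0.74 to -0.27, adjusted p = 0.0324). This call was lost in 8 of 32 fits without 1 library (ID control replicates 5, 7 and 8, IS control replicate 7, IS insulin replicates 1, 2 and 5, and ID insulin replicate 5), and over all 32 fits the term stayed between -0.55 and -0.45. It was also lost when ID control was limited to title number 69 (adjusted p = 0.101) or 70 (0.0769).

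Slc2a1 encodes GLUT1, the glucose transporter of the barrier, and was not called in any comparison of edgeR's main fit. The lowest, median and highest levels were 92.9, 124 and 153 CPM in IS control, 115, 127 and 144 CPM in ID control, 109, 119 and 138 CPM in IS insulin and 86.5, 109.9 and 125 CPM in ID insulin. ID insulin was the lowest group by its median, and 7 of 8 of its libraries lay below every ID control library. The difference was -0.25 (adjusted p = 0.0589), 95% interval -0.41 to -0.10, while the control groups had close means (0.02, 95% interval -0.13 to 0.17). DESeq2 and limma voom called Slc2a1 lower in ID insulin than in ID control. So did edgeR with these groups compared alone, without ID control replicate 1 and without ID insulin replicate 8.

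The remaining 4 transporters were not called in any comparison. Abcb1a, the P-glycoprotein efflux pump, had values of 0.13 (adjusted p = 0.497) in ID control against IS control and -0.17 (adjusted p = 0.19) in ID insulin against ID control. For Slco1c1, which carries thyroxine, these were 0.09 (adjusted p = 0.513) and -0.05 (adjusted p = 0.675). Mfsd2a, the lysophospholipid transporter that keeps vesicle traffic across brain endothelium low, had -0.06 (adjusted p = 0.849) and 0.07 (adjusted p = 0.742). Abcg2, a further efflux pump, varied widely within groups (5.40 to 13.7 CPM in ID control), and within ID control it was 12.1 ± 1.28 CPM in number 70 and 6.88 ± 1.63 CPM in number 69 (SD, n = 4 and 5; adjusted p = 0.0568 between them). Mfsd2a and Abcg2 were the 2 endothelial genes with a value below 0 in the first of these comparisons and above 0 in the second.

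Among the 6 receptors tested, Eng was called. It encodes endoglin, a co-receptor for TGF-beta and BMP ligands on endothelial cells. The lowest, median and highest levels were 24.5, 32.6 and 39.5 CPM in IS control and 41.3, 47.1 and 50.7 CPM in ID control, so that every ID control library lay above every IS control library. IS insulin (30.2, 34.9 and 42.6 CPM) and ID insulin (23.3, 38.1 and 44 CPM) each overlapped both control groups. Eng was 1.42-fold higher in ID control than in IS control (log2 fold change 0.50, SE 0.10, adjusted p = 0.0161). It was not called between ID insulin and ID control (-0.33, adjusted p = 0.0583), nor was its interaction term (-0.47, adjusted p = 0.0978). Without IS control replicate 4 its difference between control groups was 0.46 (adjusted p = 0.0518). With choroid plexus and meninges covariates it was 0.51 (adjusted p = 0.0538), and with ID control limited to title number 69 or 70 the values were 0.50 and 0.49 (adjusted p = 0.0903 and 0.118). DESeq2 and limma voom called Eng lower in ID insulin than in ID control, as did edgeR without ID insulin replicate 5 or 6. limma voom also called the interaction term of Eng.

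The VEGF receptors and angiopoietin receptors were not called in edgeR's main fit. Kdr, the main signalling receptor for VEGF, had a value of 0.46 (adjusted p = 0.104) between the control groups and -0.17 (adjusted p = 0.463) between ID insulin and ID control. Its IS control range of 20.9 to 40.5 CPM included a single high library, replicate 3, and without that library Kdr was called higher in ID control. Flt1, which binds VEGF with little signalling of its own, had 0.25 (adjusted p = 0.342) and -0.19 (adjusted p = 0.349) in these comparisons. Tek (Tie2), the angiopoietin receptor, had 0.15 (adjusted p = 0.464) and -0.24 (adjusted p = 0.101), and its partner Tie1 0.33 (adjusted p = 0.126) and -0.28 (adjusted p = 0.0893). Ptprb, the phosphatase that restrains Tie2, had 0.15 (adjusted p = 0.672) and -0.16 (adjusted p = 0.474). The median of the 6 receptors was 0.29 between control groups and -0.21 between ID insulin and ID control. DESeq2 and limma voom called Kdr higher in ID control than in IS control, and limma voom called Tie1 there and between ID insulin and ID control. edgeR called Tie1 between ID insulin and ID control without ID insulin replicate 8.

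The 4 transcription factors of endothelial identity were not called in edgeR's main fit, with few counts behind them. The SOX factors Sox17 and Sox18 had log2 fold changes of 0.18 and 0.25 in ID control against IS control and -0.24 and -0.25 in ID insulin against ID control. For the ETS factors Erg and Fli1 these were 0.30 and 0.26, then -0.33 and -0.21. The lowest adjusted p among these 8 values was 0.111, for Erg with insulin in ID pups, whose level was 8.64 ± 0.655 CPM in ID control and 6.87 ± 1.71 CPM in ID insulin (SD, n = 9 and 8). limma voom called Erg in that comparison.

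Of the 7 surface and secreted proteins, Itm2a and Podxl fell between ID insulin and ID control. Itm2a encodes a membrane protein enriched in brain endothelium. Its lowest, median and highest levels were 103, 114 and 131 CPM in ID control and 82.8, 93.9 and 103 CPM in ID insulin, and 7 of 8 ID insulin libraries lay below every ID control library. In IS pups the levels were 71, 101 and 108 CPM without and 100.5, 108 and 119 CPM with insulin, where the low IS control value was replicate 5 alone. Between the control groups edgeR's main fit did not call Itm2a, while limma voom did. Itm2a was 1.21-fold lower in ID insulin than in ID control (log2 fold change -0.28, SE 0.06, adjusted p = 0.00889), and was not called in IS pups (0.14, adjusted p = 0.281). The insulin response differed between diets (interaction -0.41, SE 0.09, adjusted p = 0.0236). Both calls were kept in every fit that left out 1 library, and both were lost with ID control limited to title number 69 (adjusted p = 0.121 and 0.0963).

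Podxl encodes podocalyxin, a sialomucin of the luminal endothelial surface that opens vessel lumens. ID control had lowest, median and highest levels of 58, 64 and 71.5 CPM and ID insulin 36.8, 56 and 63.2 CPM. IS control (43, 53.8 and 60.9 CPM) and IS insulin (44.9, 50.9 and 60.4 CPM) lay mostly below ID control, and 5 of 8 ID insulin libraries lay below every ID control library. Podxl was 1.21-fold lower in ID insulin than in ID control (log2 fold change -0.28, SE 0.08, adjusted p = 0.0403), and had 0.29 (adjusted p = 0.104) between the control groups. Its call was lost in 9 of 17 fits without 1 library (ID control replicates 2 and 5 to 9, and ID insulin replicates 2, 3 and 4), with an adjusted p of at most 0.0874. It was also lost with no count filter (0.0526), with the 2 groups compared alone (0.0981), with the tissue covariates (0.203) and with title number 69 (0.207) or 70 (0.122) alone, adjusted p in brackets. DESeq2, limma voom and the fit of the control groups alone called Podxl higher in ID control than in IS control.

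The other 5 surface and secreted proteins were not called in edgeR's main fit. In ID control against IS control they had log2 fold changes of 0.29 for the clotting protein gene Vwf, 0.32 for the sialomucin gene Emcn, 0.23 for the secreted vessel factor gene Egfl7, 0.20 for Cav1 of caveolae and 0.33 for the nitric oxide synthase gene Nos3. In ID insulin against ID control the values were -0.21, -0.19, -0.03, -0.12 and -0.25 in the same order. All 7 members of this group had an unadjusted p under 0.05 between the control groups, and Nos3 had the lowest adjusted p of the 5 (0.133). limma voom called Nos3 both between the control groups and between ID insulin and ID control. edgeR called it between ID insulin and ID control without ID insulin replicate 7.

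**Figure D2:**
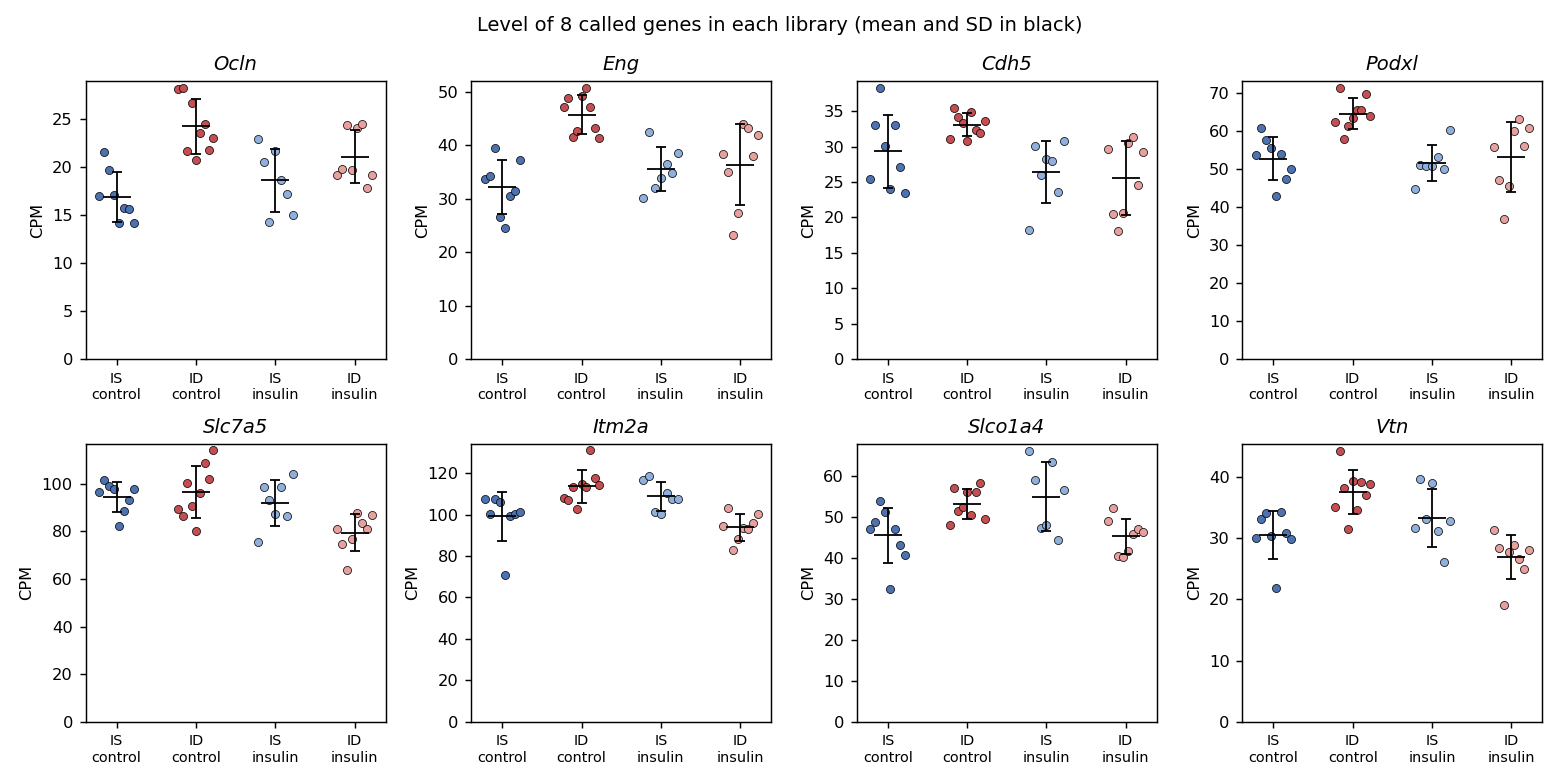
Level in CPM (vertical axis, from 0) of the 8 genes called in at least 1 comparison, with 1 point per library, and the mean and SD of each group in black. Eng has no overlap between IS control and ID control and Vtn none between ID control and ID insulin, while all other called genes overlap in part. The 8 genes were chosen by the test on these same libraries, and the share of all genes without overlap is not given here.

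Of the mural genes, the pericyte gene Vtn alone was called in edgeR's main fit. Between ID control and IS control, where 0.291% of all genes were called and 52.1% were above 0, 0 of 10 were called, with 10 of 10 fitted values above 0 (median 0.32) and 7 of 10 at an unadjusted p under 0.05. DESeq2 called 1 of the 10 higher in ID control, Pdgfrb, beside 0.738% of all genes in either direction. limma voom called Pdgfrb and Vtn, beside 1.57% of all genes. Between ID insulin and ID control, where 1.86% of all genes were lower and 48.8% were below 0, 1 of 10 fell, Vtn, with 9 of 10 below 0 (median -0.18). With choroid plexus and meninges covariates that median was -0.06, and Vtn was still called. In IS pups 0 of 10 were called with insulin (median -0.04, 3 of 10 at an unadjusted p under 0.05), and between the insulin groups 0 of 10 (median 0.25, also 3 of 10). Of all genes, 0.123% and 2.45% were called in these 2 comparisons. Vtn was also the 1 mural gene with a called interaction, beside 0.939% of all genes.

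Vtn encodes vitronectin, an adhesive protein that pericytes secrete in the brain. Its lowest, median and highest levels were 31.43, 38.2 and 44.2 CPM in ID control and 19.1, 27.9 and 31.37 CPM in ID insulin, and no ID insulin library reached the lowest ID control library. IS control had 21.8, 30.6 and 34.2 CPM, its low end again replicate 5, and IS insulin 26, 32.8 and 39.7 CPM. Vtn was 1.39-fold lower in ID insulin than in ID control (log2 fold change -0.48, SE 0.09, adjusted p = 0.00254). In IS pups the value with insulin was 0.13 (adjusted p = 0.52), and the responses differed between diets (interaction -0.61, SE 0.13, 95% interval -0.85 to -0.36, adjusted p = 0.0236). The fall with insulin in ID pups was called in all 13 alternative settings and in all 17 fits without 1 library. The interaction was called in all 32 fits without 1 library, but not with ID control limited to title number 69 (-0.61, adjusted p = 0.068).

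Pdgfrb encodes the PDGF receptor through which endothelial PDGF-B recruits pericytes. Its lowest, median and highest levels were 36.6, 42.8 and 49.1 CPM in IS control, 45.1, 55.4 and 62.7 CPM in ID control, 37.2, 47.6 and 49.99 CPM in IS insulin and 37.4, 49.3 and 63.3 CPM in ID insulin. Of the ID control libraries, 7 of 9 lay above every IS control library. The difference was 0.34 (adjusted p = 0.0848), 95% interval 0.17 to 0.51, and did not pass in the main fit. DESeq2 and limma voom called it, as did edgeR with the control groups compared alone. ID insulin and ID control overlapped widely (-0.14, adjusted p = 0.364).

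The other 5 pericyte genes were not called in edgeR's main fit. Anpep, the aminopeptidase CD13 on pericytes, had 0.41 (adjusted p = 0.147) between control groups and -0.21 (adjusted p = 0.341) between ID insulin and ID control. Rgs5, a regulator of G protein signals, had 0.21 (adjusted p = 0.36) and -0.09 (adjusted p = 0.627). Kcnj8 and Abcc9, which encode the 2 subunits of the ATP-sensitive potassium channel of brain pericytes, had 0.09 and 0.13, then -0.00 and 0.12. Notch3, the Notch receptor of mural cells, had 0.13 (adjusted p = 0.636) and -0.09 (adjusted p = 0.664). Abcc9 was the 1 mural gene above 0 between ID insulin and ID control. Without ID insulin replicate 3, edgeR called Abcc9 between the insulin groups.

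The smooth muscle genes varied most between libraries. Acta2, the smooth muscle actin gene, had lowest, median and highest levels of 4.87, 23.6 and 55.1 CPM in IS control and 21.3, 35.2 and 131 CPM in ID control. In IS insulin these were 7.07, 13.9 and 18.9 CPM and in ID insulin 5.48, 20.6 and 64.4 CPM. Replicates 5 and 6 of ID control were the 2 highest of all 32 libraries, and IS control replicate 5 was the lowest. Every IS insulin library lay within the IS control range yet below its median. That range reached below 19.2 CPM only in IS control replicate 5, and the highest IS insulin library was at 18.9 CPM. ID insulin was spread over both the low and the high end. The fitted differences were 0.96 (adjusted p = 0.346) for ID control against IS control, -1.06 (adjusted p = 0.152) for ID insulin against ID control, -1.04 (adjusted p = 0.276) for IS insulin against IS control and 0.94 (adjusted p = 0.269) for ID insulin against IS insulin. Their SEs lay between 0.42 and 0.48, so that differences of this size did not pass at this spread between libraries.

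Tagln (transgelin) and Myh11 (smooth muscle myosin heavy chain), both parts of the contractile apparatus, had their highest library in common with Acta2. ID control replicate 5 was the highest of the 32 for both, at 148 and 182 CPM, while the medians of that group were 40.7 and 50.6 CPM. Tagln had values of 0.85 (adjusted p = 0.324) in ID control against IS control and -0.997 (adjusted p = 0.117) in ID insulin against ID control. For Myh11 these were 0.87 (adjusted p = 0.352) and -0.88 (adjusted p = 0.194). The interaction term of Acta2, Tagln and Myh11 was -0.02, -0.37 and 0.00, with SEs of 0.64, 0.54 and 0.55. Without ID insulin replicate 8, edgeR called Tagln between ID insulin and ID control. With the second title number as a block, it called Acta2, Tagln and Myh11 there.

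**Figure D3:**
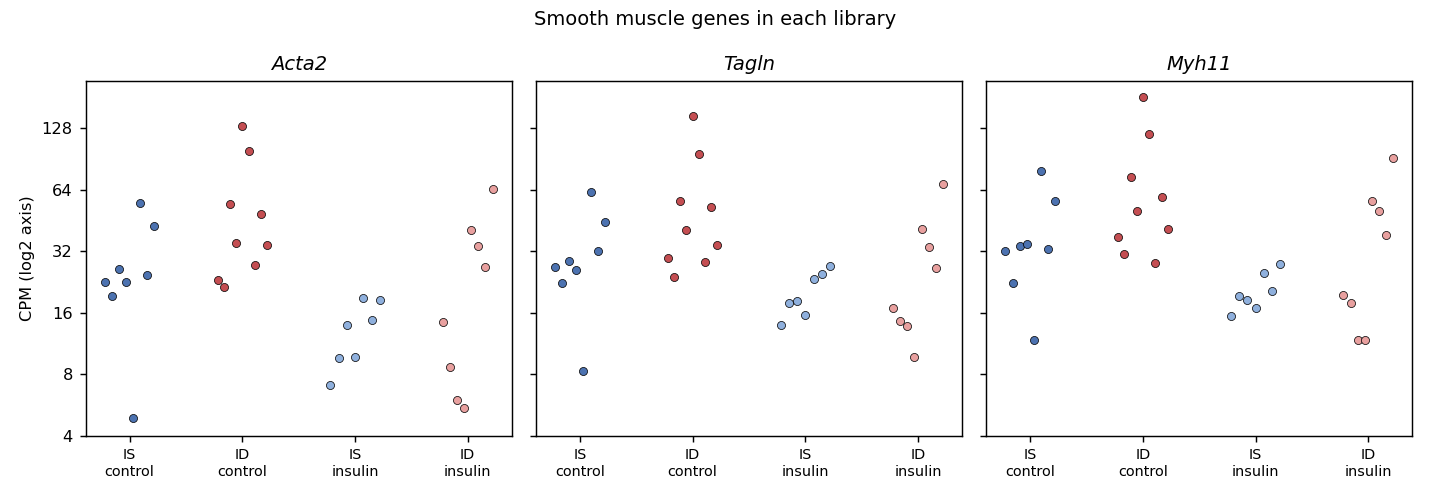
Level in CPM (vertical axis, log2 scale) of the 3 smooth muscle genes with 1 point per library, by group. Each gene varies several-fold within IS control, ID control and ID insulin, and the IS insulin libraries form the narrowest range.

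Further vessel genes from lists outside the set were read in the same fit, and with lists this small 1 call can be close to the share over all genes (0.291% between the control groups, 1.86% lower and 1.96% higher between ID insulin and ID control, and 2.45% between the insulin groups). Among 21 other endothelial identity genes, 0 were called between the control groups (median 0.19), and 1 fell between ID insulin and ID control, Mmrn2 (-0.42, adjusted p = 0.0432), which encodes an endothelial matrix protein (median -0.11). Among 17 other barrier transporters, 0 were called between the control groups and 2 fell with insulin in ID pups, Slc3a2 (-0.18, adjusted p = 0.00602) and Slc9a3r2 (-0.25, adjusted p = 0.0219). Slc3a2 encodes the heavy chain that LAT1, the product of Slc7a5, needs at the cell surface. Its lowest, median and highest levels were 148, 162 and 173 CPM in IS control, 145, 161 and 168 CPM in ID control, 154, 162 and 174 CPM in IS insulin and 133, 138 and 149 CPM in ID insulin. Slc3a2 was also lower in ID insulin than in IS insulin (-0.24, adjusted p = 0.00127), and its interaction term was called (-0.23, adjusted p = 0.032). It is made by many cell types, so the bulk value is not one of endothelium alone.

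Of 35 genes of Wnt, VEGF, angiopoietin and Notch signalling, 0 were called between the control groups, with insulin in either diet or in the interaction, and the medians of the first 2 comparisons were 0.15 and -0.10. The 1 call was Apln, the ligand of the apelin receptor of growing vessels, lower in ID insulin than in IS insulin (-0.21, adjusted p = 0.0383), which is 1 of 35 where 2.45% of all genes differed. Of 14 other junction genes 1 was called, Cldn10, lower in the same comparison (-0.25, adjusted p = 0.0305). Among 12 genes of the vessel basement membrane, 0 were called between the control groups (median 0.25, 9 of 12 at an unadjusted p under 0.05) or between ID insulin and ID control (median -0.11, 3 of 12). Nid1, which encodes a linker protein of basement membranes, was higher in ID insulin than in IS insulin (0.36, adjusted p = 0.0219), where all 12 had values above 0 (median 0.27). Of 5 genes of vessel fenestration and immune entry, 1 was higher in ID insulin than in ID control, Lcn2 (1.21, adjusted p = 0.0265), which encodes an iron-scavenging lipocalin.

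Among 27 other mural genes, Aoc3, an amine oxidase on the surface of smooth muscle, rose between IS control and ID control (1.45, adjusted p = 0.0346), and the median of the list was 0.26. The lowest, median and highest levels of Aoc3 were 0.402, 1.40 and 2.23 CPM in IS control and 2.11, 2.91 and 10.3 CPM in ID control, the highest in replicate 5, which was also highest for the smooth muscle members. With insulin in ID pups, where 1.86% of all genes were lower, 5 of the 27 fell (median -0.37) and 0 rose. The 4 with the lowest adjusted p were Sncg (-1.51), the actin regulator gene Lmod1 (-0.74), the GABA and taurine transporter gene Slc6a13 (-0.74) and the transcription factor gene Foxc1 (-0.50). Aoc3 was the fifth (-1.18, adjusted p = 0.027). Sncg is strongly expressed in some neurons, and Slc6a13 and Foxc1 also in meninges.

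Summed markers of neighbouring tissues had different medians between the groups. The summed level of 12 meninges and fibroblast genes was 582 to 1085 CPM (median 737) in IS control, 869.5 to 1346 CPM (median 1012) in ID control, 554 to 971 CPM (median 681) in IS insulin and 563 to 954 CPM (median 875) in ID insulin, with 0 of the 12 at 0 counts in any group. Of the 11 tested, 1 rose between the control groups, Prelp (0.57), with a list median of 0.43, where 0.175% of all genes were higher. Between ID insulin and ID control 4 fell (Bgn -0.43, Aldh1a2 -0.80, Col1a1 -0.61 and Col3a1 -0.63), where 1.86% of all genes were lower. The list median there was -0.43. The summed level of 14 choroid plexus genes was 148 to 4092 CPM (median 539) in IS control, 1573 to 6716 CPM (median 3019.5) in ID control, 177 to 5315 CPM (median 1363) in IS insulin and 489 to 7181 CPM (median 4074) in ID insulin. Of the 13 choroid plexus genes tested 0 were called in any comparison, and their median was 1.16 between the control groups and 0.05 between ID insulin and ID control. In ID control 1 choroid plexus gene was at 0 counts in every library, and in IS insulin also 1.

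With the mean levels of both lists as covariates, the endothelial median was 0.22 between the control groups and -0.18 between ID insulin and ID control. The calls went from 2 to 0 and from 5 to 2 genes of the set (Itm2a and Vtn were kept), and the 3 interaction calls were kept. Over all genes the calls of the first 2 comparisons also went down, from 45 to 18 and from 589 to 359. Those of the interaction went from 145 to 199. Both tissues have vessels of their own, which these fits do not separate from those of the hippocampus. Red blood cell markers summed to 938 to 3245 CPM (median 1627) in IS control and 1587 to 4010 CPM (median 1972) in IS insulin. The sums were 1373 to 3231 CPM (median 1774) in ID control and 1267 to 5532 CPM (median 3374) in ID insulin. Whether they reflect blood left in the vessels was not tested. Of the 7 genes tested, 4 were higher in ID insulin than in ID control (Alas2, Slc4a1, Hbb and Ahsp), where 1.96% of all genes were higher. Markers of the thalamus and habenula, which lie next to the hippocampus, summed to 141 to 228 CPM (median 156) in ID control and 161 to 627 CPM (median 206) in ID insulin, the highest in replicate 5. Without ID insulin replicates 3 and 5 together, Slc7a5, Itm2a and Vtn were still called between ID insulin and ID control, and Cdh5 and Podxl were not. The part of red blood cells and of the thalamus in the values of the set was not tested.

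**Figure D4:**
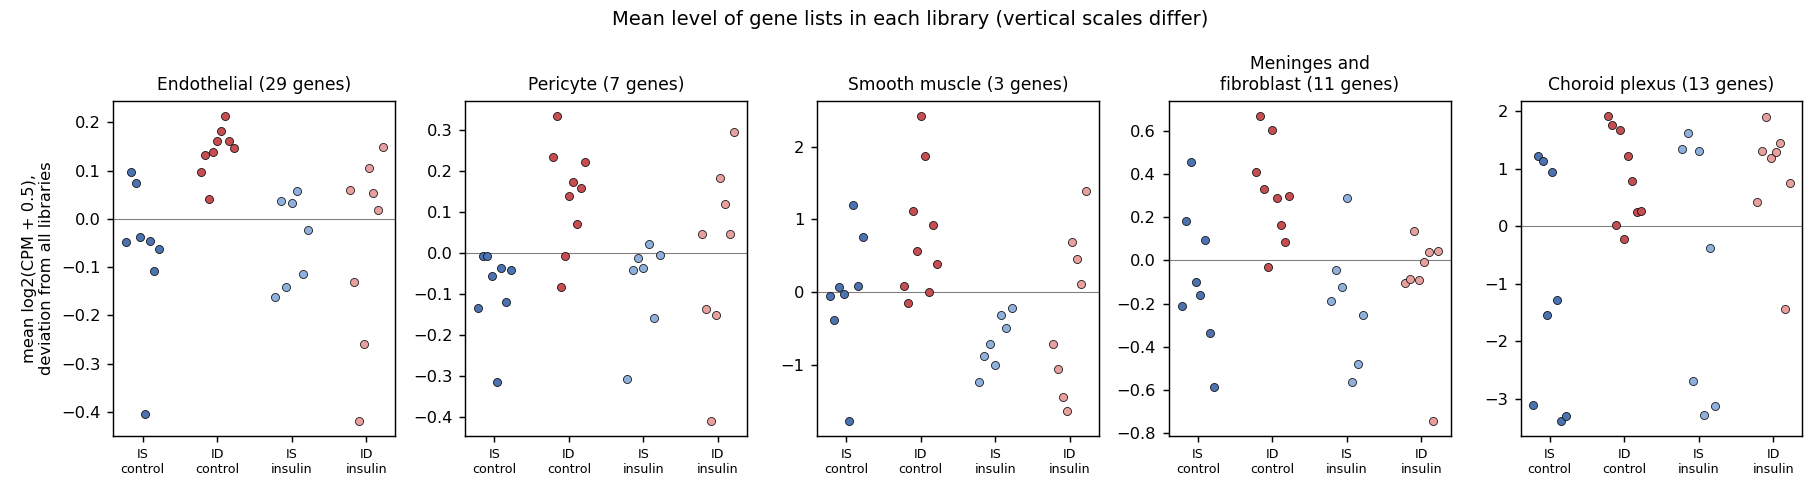
Mean log2(CPM + 0.5) of each gene list in each library as its deviation from the mean of all 32 libraries (vertical axis; the scales differ between panels), by group. ID control libraries lie high in the endothelial, pericyte and meninges panels, and single low libraries of IS control and ID insulin stand out in the first 2 panels.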

How the data were processed

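RNA sequencing of 1 hippocampus from each of 32 rat pups gave 1 table of raw counts per gene. The authors' steps, per the submitters' processing notes, used Trimmomatic (version 0.40) for trimming, FastQC for inspection, HISAT2 (version 2.1.0) for alignment and featureCounts for counting, with edgeR also named. The deposited counts are whole numbers and not normalized. The notes list Rnor_6.0 and mm10 without saying what each was for. Strand and the handling of multiply mapped reads are not given in the sources used here, so genes that overlap or have close copies are uncertain.

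The main test was edgeR's (version 4.0.16, under R version 4.3.3) two-sided quasi-likelihood test, glmQLFit and glmQLFTest, after TMM scaling and filterByExpr by group. All 32 libraries entered 1 fit of the 4 groups, leaving 28 residual degrees of freedom. Adjustment was by Benjamini-Hochberg over 15439 genes, and a gene was called at an adjusted p under 0.05. The comparisons were ID control against IS control, ID insulin against ID control, IS insulin against IS control, ID insulin against IS insulin, and the interaction. CPM uses TMM-scaled totals, and levels are not compared between genes, since gene lengths were not used. On simulated data for ID control against IS control (15349 genes), 39 of 100 genes changed by 0.3 (log2) and 88 of 100 changed by 1 were called, and 8 of 15149 unchanged genes.

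The genes and lists were chosen with earlier results of these data known, so no test over a list was made. Genes called in any of the 5 comparisons, and Cldn5, Slc2a1, Pdgfrb and Acta2 in any case, were given by library, and at most 4 called genes per other list and comparison were named. Replicates are numbered within each group. The second number in the sample titles was checked as a pairing. Between libraries of different groups with the same number, 8 of 40 pairs had a correlation of deviations over 0.1, so the number was not used as one. The closest libraries of a group differed by 5.99 chi-square per gene, so none was a copy. Alternatives were DESeq2 (version 1.42.0), its size factors within edgeR, the table without a count filter, 1 CPM in 7 libraries, limma voom (version 3.58.1) with quality weights, the title number as a block, the Y-linked genes as a covariate, the choroid plexus and meninges lists as covariates, ID control limited to title number 69 or 70, removal of ID insulin replicates 3 and 5, the compared groups alone, and each library left out. The earlier quasi-likelihood method of edgeR was added after seeing the data.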

Additional observations from a re-analysis of the deposited data

Results flagged for a closer look

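Among 156 combinations of a tested gene and a group, 9 held a single library far from the others of its group by Dixon's test, and chance gives about 1 in 20. Of the 9, 4 were low values of IS control replicate 5. There Abcb1a was 44.4 CPM against 55.9 to 64.7 CPM in the others, Itm2a 71.0 CPM against 99.3 to 107.7 CPM, Cav1 34.8 CPM against 47.2 to 55.7 CPM, and Vtn 21.8 CPM against 29.9 to 34.2 CPM. In other IS control libraries, Kdr was 40.5 CPM in replicate 3 against 20.9 to 29 CPM, and Abcc9 was 42.9 CPM in replicate 4 against 29.9 to 35.8 CPM. In ID control, Tie1 was 44.7 CPM in replicate 5 against 32.3 to 37 CPM, and Nos3 was 14.2 CPM in replicate 3 against 17.5 to 19.4 CPM. In ID insulin, Sox17 was 2.45 CPM in replicate 3 against 3.73 to 4.62 CPM.

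The response to insulin differed between the diets in 3 genes of the set by edgeR's quasi-likelihood test of the interaction (log2, ID response minus IS response): Slco1a4 at -0.50, Itm2a at -0.41 and Vtn at -0.61, with adjusted p of 0.0324, 0.0236 and 0.0236.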

How the results depend on the processing

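Over the alternatives and the fits without 1 library, the median log2 fold change of the endothelial and of the mural genes ran from 0.16 to 0.26 and from 0.29 to 0.35 between the control groups, from -0.26 to -0.17 and from -0.25 to -0.06 between ID insulin and ID control, and from -0.26 to -0.17 and from -0.28 to -0.07 for the interaction. The medians of IS insulin against IS control (endothelial -0.05 to 0.05, mural -0.08 to 0.00) and the endothelial median between the insulin groups (-0.03 to 0.06) lay near 0 and took either sign, and the mural median there ran from 0.15 to 0.30. The number of genes of the set called moved more. Between ID control and IS control, in place of 2 genes, DESeq2 called 5 and limma voom 9, and the count was 4 with the 2 groups compared alone, 0 with choroid plexus and meninges covariates, 1 with ID control libraries of title number 69 alone and 0 with number 70 alone, and 1 to 3 when 1 library was left out. Between ID insulin and ID control, in place of 5, DESeq2 called 8 and limma voom 11, and the count was 3 with no count filter, 4 with the 2 groups compared alone (Itm2a and Vtn shared, Slc2a1 and Slco1a4 added), 2 with the covariates, 1 with number 69 alone, 3 with number 70 alone, 3 without ID insulin replicates 3 and 5, and 3 to 9 when 1 library was left out (9 without ID insulin replicate 8). The 3 came without any of ID control replicates 2 and 5 to 9 or ID insulin replicates 2, 3 and 4. Between the insulin groups the count of 0 was 3 with DESeq2 and 0 to 2 when 1 library was left out (1 or 2 without IS insulin replicates 1 or 6, or ID insulin replicates 1, 2 or 3). The 3 interaction calls were 0 with number 69 alone and 2 to 3 when 1 library was left out. Over all genes the counts moved too. The interaction was called in 145 genes, 12 with number 69 alone, 423 with DESeq2 and 491 with limma voom. The control groups differed in 45 genes, 18 with the covariates, 114 with DESeq2 and 242 with limma voom. ID insulin and ID control differed in 589, 359 with the covariates, 278 when compared alone, 150 with number 69 alone, 232 with number 70 alone, 819 with DESeq2 and 779 with limma voom. The insulin groups differed in 378, 723 with DESeq2 and 566 with limma voom. Fewer libraries enter the fits with 1 title number, and elsewhere the cause was not tested. In IS insulin against IS control the count was 0 in every alternative run. With the compared groups alone the interaction has no fit of its own.

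With a replicate block given by the second number in the titles, edgeR called 2 genes of the set between the control groups (Eng kept, Ocln lost, Acta2 added). Between ID insulin and ID control it called 14, beside 4.55% of all genes. Cdh5 was lost there, and Abcb1a, Acta2, Cldn5, Eng, Erg, Myh11, Nos3, Slc2a1, Tagln and Tie1 were added. Between the insulin groups it called 1, Itm2a. The interaction was called in 0, with Itm2a, Slco1a4 and Vtn lost (adjusted p = 0.0727, 0.173 and 0.17), and in 9 of all genes. Same-numbered libraries of different groups had a median correlation of deviations of 0.00, as did libraries with different numbers, so the number is not shown to pair pups. No called gene of the set changed sign in any alternative run. Robo4 was too low to be tested, and the transcription factors had few counts.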

Other observations

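Robo4 had 31 counts in ID insulin replicate 2 and at most 3 in any IS control library, 2 in any ID control library and 4 in any IS insulin library. Over the tested endothelial genes, ID insulin replicate 2 was the lowest of its group in 1 of 29 and the highest in 2 of 29.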
